A study of Homo sapiens with 36 samples.

Results

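The response of 2 human cancer cell lines to wortmannin was compared gene by gene, to find the genes that responded differently in SW1783 and HT29 and the genes that moved the same way in both. The change with wortmannin in SW1783 minus the change in HT29 was tested for all genes, with 12 of the 36 libraries of the series. It differed for 458 of the 13625 genes tested, and 24 of the 11931 genes tested in both lines were called in the same direction in each. RNA was sequenced from SW1783, a line derived from an astrocytoma, and HT29, a line from a colorectal adenocarcinoma, 24 h after treatment. In each line 3 libraries had received 10 µM wortmannin and 3 had received vehicle, which the labels give as 0.1% DMSO. Wortmannin served the study as the reference inhibitor for a plant extract whose libraries, in a second batch, are used here only beside the wortmannin values. Neither line carried a genetic modification in the labels, and each line is a single model of its tumour type. The study grew the lines in different media, SW1783 without and HT29 with added carbon dioxide, and plated them at different cell numbers. Effects of these conditions cannot be told apart from those of the line. No source used here says whether the replicates were separate cultures, so the p-values measure the spread between these libraries, which may be technical.

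Phosphoinositide 3-kinase (PI3K) turns growth factor signals into a membrane lipid that recruits the kinase AKT, and AKT keeps the FOXO transcription factors out of the nucleus and feeds the growth kinase mTOR. Wortmannin is a fungal steroid-like compound that binds PI3K covalently, and at high concentrations also inhibits related kinases such as mTOR and DNA-PK. Interferon-stimulated genes are a separate program: interferons bind cell surface receptors, JAK kinases phosphorylate STAT proteins, and these join IRF9 in a complex that binds the interferon-stimulated response element in the promoters of antiviral genes.

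The libraries held 17652481 to 29985875 counts, and 14489 to 16216 genes had at least 10 counts. The squared differences between libraries of a group were 1.68 to 3.78 times those of counting error (chi-square per degree of freedom). The exception was HT29 vehicle replicate 1, at 14.8 and 17 against the others of its group. Results that rest on HT29 vehicle are therefore given without this library where they changed. The defining epithelial genes EPCAM, CDH1 and KRT20 were high in HT29 and at 0 to 2 raw counts in every SW1783 library. The matrix genes COL1A2 and SPARC were high in SW1783 and listed at 0 in HT29. CDH2 was at 0 and VIM at 1 to 4 raw counts in HT29, and CDX2 was at 0 in SW1783. Some other listed markers were present in both lines. The epithelial keratins KRT18 and KRT8 had 4554 to 6296 and 387 to 600 raw counts in SW1783, below HT29. CD44, listed for SW1783, had 8803 to 15858 in HT29, below SW1783. The glial genes GFAP, S100B and SOX2 were at 0 to 6 raw counts in SW1783, so these markers did not bear out the astrocytic label. NES, listed with them, had 171 to 260 raw counts in SW1783. Of the blood cell markers, CD3E was at 0 and HBB at 0 or 1 in all libraries, while PTPRC had 215 to 355 raw counts in SW1783 and LYZ 34268 to 58410 in HT29. In bulk RNA, fewer cells of a kind and less RNA per cell cannot be told apart.

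A gene was called when its adjusted p-value in the Wald test of DESeq2 was under 0.05 and its change was over 1.5-fold. Wortmannin raised 242 genes (1.74% of 13944 tested) and lowered 137 (0.983%) in SW1783. In HT29 it raised 262 (1.92% of 13678) and lowered 100 (0.731%). The difference between the lines was called for 338 genes with a more positive change in HT29 (2.48% of 13625) and for 120 with a more positive change in SW1783 (0.881%). In either direction these were 2.72% of the genes tested in SW1783, 2.65% in HT29 and 3.36% for the difference. Without regard to size, the 3 wortmannin libraries all lay above the 3 vehicle libraries for 26.0% of genes in SW1783 and 24.2% in HT29, and all below for 29.5% and 19.7%, which is the background for every gene described here as not overlapping. Of the 338 genes, 118 were called higher in HT29 and not in SW1783, and 49 were called lower in SW1783 and not in HT29. Another 167 were called in neither line. Of the 120 genes, 48 were called higher in SW1783 alone, 17 lower in HT29 alone and 54 in neither line. With edgeR, which called 685 genes, the split of the difference was 404 against 281. Without HT29 vehicle replicate 1 the numbers in HT29 were 226 and 49, without vehicle replicate 3 they were 224 and 161, and the difference gave 357 against 120 and 335 against 142. Both lines had a mean count of at least 10 for 442 of the 458 genes, and at least 100 for 240. For 101 of the 458 the estimated counts were fractional in over 0.5 of the libraries, a sign that reads were divided between similar genes. Among the genes with the largest differences described below, this held for GCHFR, VIPR1, SERPINB3, IGF2, XAF1, C4orf19 and PCDHGA5. Among the shared genes described below, it held for IFITM1, IDUA, TTLL1 and RNASE4. The counts of these genes are uncertain.

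The shared part of the response was small at the fold threshold and larger below it. The 17 genes called higher in both lines were 0.142% of the 11931 genes tested in both, and the 7 called lower were 0.0587%. Together the 24 genes were 6.33% of the genes called in SW1783 and 6.63% of those called in HT29. At an adjusted p under 0.05 with no fold threshold, 320 genes were higher in both lines (2.68%) and 909 lower in both (7.62%), against 129 that moved in opposite directions (1.08%). Those 1229 genes were 26.0% of the SW1783 list and 48.0% of the HT29 list. The fold changes on the log2 scale, over the 13197 genes that averaged at least 10 counts in each line, had a Spearman correlation of 0.355 and a Pearson correlation of 0.274. This is a description across genes, which are not independent replicates, and the lines share no library.

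**Figure D1:**
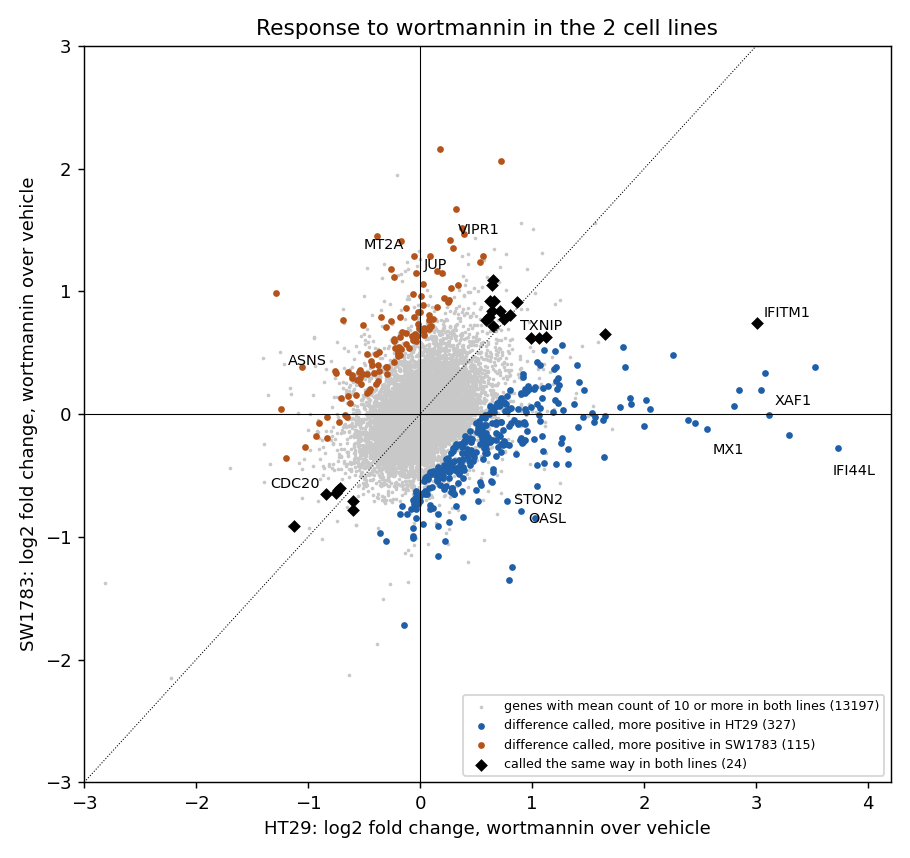
Log2 fold change with wortmannin in HT29 (horizontal axis) and SW1783 (vertical axis), 1 point per gene with a mean count of 10 or more in both lines (3 further genes, none of them called, lie below -3 on the horizontal axis and are not shown). Blue and orange points are genes whose change differed between the lines, black diamonds are the 24 genes called the same way in both, and the dotted line marks equal change. The blue points run far to the right along a SW1783 change near 0.

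Many of the interferon-stimulated genes listed rose in HT29, and few were called in SW1783. Of the 40 interferon-stimulated genes listed, 39 were tested in HT29, where 35 were called higher and none lower, with a median log2 fold change of 1.53 against -0.004 over all genes tested. Over all genes tested in HT29, 1.92% were called higher. At an adjusted p under 0.05 alone 38 of the 39 were higher, beside 7.63% of all genes. In SW1783, 37 were tested, IFITM1 was the only member called higher and OASL the only one called lower, with a median of -0.02. The difference itself was called for 34 of 38 members tested, in each case with the more positive change in HT29, beside 2.48% of all genes. The list was written with the rise of such genes in HT29 already known, so its counts are no independent evidence of the direction.

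IFI44L (ENSG00000137959, chr1:78619902-78646145), an interferon-induced protein of the cytoplasm, had the largest difference of the list. It had 33.7, 23.3 and 26.7 with vehicle and 378, 322 and 412 with wortmannin in HT29, and 954, 976 and 960 with vehicle and 829, 784 and 781 with wortmannin in SW1783 (normalized counts, replicates 1 to 3 in order). All HT29 wortmannin libraries lay far above their vehicle, while the SW1783 wortmannin libraries lay slightly below theirs. The log2 fold change was 3.74 ± 0.22 (SE, n = 3 per group, here and below) in HT29 and -0.28 ± 0.07 in SW1783, and the difference, SW1783 minus HT29, was -4.04 ± 0.20 (DESeq2 adjusted p = 1.75e-90).

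The interferon-stimulated response element was searched for in the promoters to describe how often the letters stand there. The window was 250 bases before to 50 after the start of each gene in RefSeq on GRCh38.p14, and the letters were GAAA, any 2 bases and GAAA again, on either strand. They stood in 24 of the 33 promoters found for the listed interferon-stimulated genes (72.7%), against 996 of all 27305 promoters (3.65%). Of the 184 promoters found for genes called higher in HT29, 33 held them (17.9%), and of 161 for genes called higher in SW1783, 4 (2.48%). Among genes whose difference was more positive in HT29 but which were not on the list, 14 of 218 did (6.42%). Most promoters of the genes called higher in HT29 did not hold the letters. The list was made of antiviral genes with their rise known, so its share of 72.7% is no independent evidence. A match is a description of these letters and not a bound site. The stretches below were chosen from promoters that hold the letters. Stretches around the match, with the motif in capitals (on the opposite strand it reads TTTC, any 2 bases and TTTC), are given for 4 genes that rose in HT29 alone, for IFITM1, which rose in both lines, and for BST2, which holds the letters and was called in HT29 only without HT29 vehicle replicate 1 or wortmannin replicate 2.
IFI44L (chr1:78620274-78620303, plus strand): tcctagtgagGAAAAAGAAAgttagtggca
ISG15 (chr1:1013374-1013403, plus strand): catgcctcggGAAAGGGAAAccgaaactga
IFIT1 (chr10:89392497-89392526, plus strand): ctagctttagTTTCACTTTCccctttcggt
OAS3 (chr12:112938321-112938350, plus strand): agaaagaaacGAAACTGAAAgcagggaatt
IFITM1 (chr11:313990-314019, plus strand): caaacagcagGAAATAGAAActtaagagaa
BST2 (chr19:17405741-17405770, minus strand): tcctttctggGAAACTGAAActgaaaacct

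The GTPases MX1 and MX2, which trap viral nucleocapsids, rose together in HT29. In SW1783 neither was called, and their small changes went in opposite directions (-0.12 for MX1 and 0.34 for MX2). MX1 (ENSG00000157601, chr21:41420020-41470071) had 225, 160 and 211 with vehicle and 1178, 1070 and 1300 with wortmannin in HT29, with a log2 fold change of 2.56 ± 0.13, and 227, 214 and 218 with vehicle and 191, 211 and 205 with wortmannin in SW1783. The vehicle libraries of both lines lay close together, the SW1783 wortmannin libraries slightly below vehicle, and the HT29 wortmannin libraries far above it. MX2, its neighbour on the same chromosome, had 26.2, 26.2 and 42.1 with vehicle and 277, 237 and 297 with wortmannin in HT29 and 109, 104 and 115 with vehicle and 135, 145 and 136 with wortmannin in SW1783, with differences of -2.71 ± 0.18 (DESeq2 adjusted p = 6.09e-50) for MX1 and -2.77 ± 0.25 (DESeq2 adjusted p = 1.99e-25) for MX2.

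The oligoadenylate synthetases make a second messenger that activates RNase L. OAS2 (ENSG00000111335, chr12:112978395-113011723) had 122, 102 and 141 with vehicle and 909, 810 and 940 with wortmannin in HT29 and 164, 177 and 139 with vehicle and 172, 196 and 186 with wortmannin in SW1783, a difference of -2.68 ± 0.19 (DESeq2 adjusted p = 7.11e-44). OAS3, whose promoter stretch is printed above, had 2136, 2191 and 2540 with vehicle and 5755, 5587 and 6143 with wortmannin in HT29. In SW1783 OAS3 went the other way, with 528, 483 and 559 with vehicle and 388, 391 and 407 with wortmannin and a log2 fold change of -0.41 ± 0.09, below the fold threshold. No library of either line overlapped between treatments for OAS3. OAS1 was low in SW1783, at 15, 16.8 and 22.9 with vehicle, and rose by 1.56 ± 0.09 in HT29.

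IFIT1, which binds uncapped viral RNA, had 187, 140 and 173 with vehicle and 905, 724 and 1028 with wortmannin in HT29 and 215, 249 and 195 with vehicle and 204, 219 and 218 with wortmannin in SW1783. ISG15, a ubiquitin-like modifier, had 852, 594 and 540 with vehicle and 1462, 1302 and 1526 with wortmannin in HT29, where replicate 1 of vehicle was the highest of its group, and 621, 653 and 606 with vehicle and 532, 538 and 595 with wortmannin in SW1783. Its conjugating enzyme UBE2L6 (ENSG00000156587, chr11:57551656-57568284) had 18.7, 18.2 and 15.4 with vehicle and 125, 114 and 135 with wortmannin in HT29, far below SW1783, which had 934, 956 and 964 with vehicle and 999, 963 and 1033 with wortmannin. The differences were -2.46 ± 0.21 (DESeq2 adjusted p = 7.25e-28) for IFIT1, -1.29 ± 0.19 (DESeq2 adjusted p = 6.3e-10) for ISG15 and -2.76 ± 0.23 (DESeq2 adjusted p = 8.68e-31) for UBE2L6.

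Several members started from a few counts in HT29 and stayed below SW1783 even with wortmannin. SAMD9L (ENSG00000177409, chr7:93130056-93148385), an antiviral factor, had 3.74, 2.19 and 6.15 with vehicle and 42.3, 32.2 and 42.1 with wortmannin in HT29 against 605, 635 and 597 with vehicle and 594, 523 and 520 with wortmannin in SW1783. TRIM22 (ENSG00000132274, chr11:5689610-5737089), a ubiquitin ligase that overlaps 3 other genes on its strand, had 2.5, 3.64 and 5.13 with vehicle and 50.1, 36.8 and 47 with wortmannin in HT29 and 94.2, 99.9 and 93.7 with vehicle and 113, 124 and 139 with wortmannin in SW1783. XAF1 (ENSG00000132530, chr17:6755447-6775647), a pro-apoptotic protein whose counts were partly divided with other genes, had 37.4, 21.1 and 17.4 with vehicle and 199, 214 and 238 with wortmannin in HT29 and 351, 386 and 351 with vehicle and 354, 408 and 328 with wortmannin in SW1783. Their wortmannin and vehicle libraries did not overlap in HT29, and the differences were -3.50 ± 0.46 (DESeq2 adjusted p = 2.63e-12), -3.15 ± 0.50 (DESeq2 adjusted p = 1.53e-08) and -3.15 ± 0.24 (DESeq2 adjusted p = 5.87e-36). SLC15A3 (ENSG00000110446, chr11:60937060-60952653), a lysosomal peptide transporter, had 8.73, 3.64 and 3.08 with vehicle and 51.3, 31.3 and 40.8 with wortmannin in HT29 and 130, 110 and 119 with vehicle and 144, 131 and 135 with wortmannin in SW1783, a difference of -2.89 ± 0.46 (DESeq2 adjusted p = 2.79e-08).

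Starting levels of single members differed between the lines. Mean vehicle values were lower in HT29 than in SW1783 for 25 of the 40 listed genes. For 13 of the 40 the HT29 mean with wortmannin was below the SW1783 vehicle mean. The same share over all genes was not computed, so these counts are not read as a trait of the list. IFITM3, a membrane protein that blocks virus entry, had 439, 315 and 348 with vehicle and 1180, 1135 and 1195 with wortmannin in HT29 and 6527, 6450 and 6376 with vehicle and 6298, 6384 and 6516 with wortmannin in SW1783, so the treated HT29 cells remained below untreated SW1783 cells. IFI27 went the other way, with 966, 613 and 718 with vehicle and 2515, 2247 and 2452 with wortmannin in HT29 against 377, 422 and 399 in SW1783 vehicle. The members tested and not called in HT29 were IFITM2, BST2, ISG20 and LGALS3BP, and HERC5 had no adjusted p-value there. BST2, which tethers virus particles at the cell surface, had 1470, 1091 and 1132 with vehicle and 1843, 1610 and 1954 with wortmannin in HT29, without overlap, and changed by 0.52 ± 0.12 (DESeq2 adjusted p = 0.000172) on the log2 scale. Without HT29 vehicle replicate 1 both its HT29 change (0.67) and its difference (-0.69) were called.

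**Figure D2:**
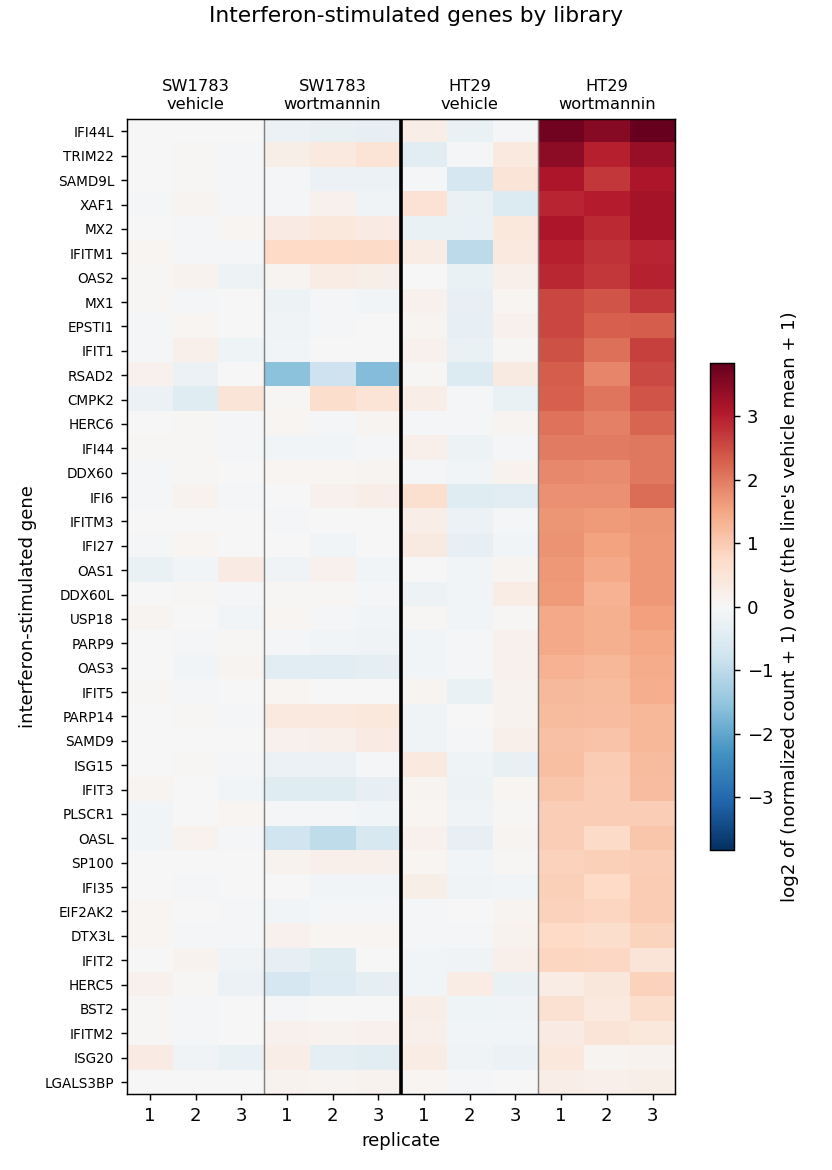
Each listed interferon-stimulated gene (rows, ordered by the HT29 change) in each of the 12 libraries (columns, replicates 1 to 3 of every group), as log2 of the normalized count plus 1 over the vehicle mean plus 1 of its own line. Red is above and blue below the vehicle mean: the 3 HT29 wortmannin columns are red in nearly every row, while the SW1783 wortmannin columns are pale apart from RSAD2 and OASL, which are bluer, and IFITM1, which is redder.

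Genes listed as interferon ligands, signalling genes and sensors moved in part. Of the 7 interferon ligand genes listed, IFNE alone had more than a few counts, at 173, 172 and 192 with vehicle and 261, 264 and 233 with wortmannin in SW1783 and 101, 111 and 129 with vehicle and 155, 148 and 140 with wortmannin in HT29. Its change was 0.49 ± 0.13 (DESeq2 adjusted p = 0.00102) in SW1783 and 0.35 ± 0.18 (DESeq2 adjusted p = 0.171) in HT29, and the difference, 0.12, was not called. IFNB1, IFNK and the listed lambda interferons were at 0 to 3 raw counts in every library and IFNG at 0, so that a change of these ligand mRNAs was not detectable at this depth.

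Of 19 receptor and signalling genes, 17 were tested in HT29 and 5 were called higher, beside 1.92% of all genes. STAT2, IRF7, IRF9 and JAK2 were among the 5. IRF9, the DNA-binding partner of the STAT proteins, had 381, 277 and 347 with vehicle and 855, 788 and 737 with wortmannin in HT29 and 342, 408 and 380 with vehicle and 365, 440 and 403 with wortmannin in SW1783, with a difference of -1.16 ± 0.17 (DESeq2 adjusted p = 7.89e-10). For 2 of the 18 members tested, IRF9 among them, the difference was called, beside 2.48% of all genes. STAT2 rose in both lines, from 819, 795 and 844 to 1138, 1201 and 1170 in SW1783 and from 480, 452 and 474 to 765, 757 and 791 in HT29, with changes of 0.51 ± 0.06 and 0.69 ± 0.09, only the latter past the fold threshold. The call of JAK2, 0.62 ± 0.21, ended when any single HT29 library was left out (0.60 to 0.63), and in SW1783 that of the feedback inhibitor SOCS1, -0.73 ± 0.29, ended without any library but vehicle replicate 1 (-0.78 to -0.59). The difference of IRF7 was called without HT29 vehicle replicate 1 (-0.61). The receptor genes IFNAR1 and IFNAR2 changed by -0.03 and 0.15 in HT29 and were not called.

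Among 13 genes listed with the nucleic acid sensors and adaptors, 12 were tested in HT29. RIGI, IFIH1, DHX58, TLR3 and SAMHD1 were called higher there, beside 1.92% of all genes. RIGI, the sensor of short double-stranded RNA, had 263, 263 and 326 with vehicle and 852, 776 and 921 with wortmannin in HT29 and 367, 343 and 361 with vehicle and 328, 359 and 336 with wortmannin in SW1783, a difference of -1.64 ± 0.14 (DESeq2 adjusted p = 4.17e-27). IFIH1, which senses long double-stranded RNA, had 241, 241 and 305 with vehicle and 589, 559 and 702 with wortmannin in HT29 and 91, 106 and 85 with vehicle and 93.6, 98.9 and 114 with wortmannin in SW1783, a difference of -1.12 ± 0.21 (DESeq2 adjusted p = 7.34e-06). The DNA sensor CGAS and its adaptor STING1 were not called in either line, with HT29 changes of 0.06 ± 0.11 and 0.37 ± 0.10. The difference was called for 4 of the 12 members tested, RIGI, IFIH1, DHX58 and SAMHD1, beside 2.48% of all genes. IFI16 (ENSG00000163565, chr1:158999968-159055155), a DNA-binding interferon-inducible protein that stood on none of the lists, had 0, 0 and 2 raw counts with vehicle and 6, 8 and 8 with wortmannin in HT29 and 2336, 2258 and 2307 with vehicle and 2438, 2423 and 2615 with wortmannin normalized counts in SW1783, so its called difference rests on a handful of HT29 reads. Without HT29 vehicle replicate 2 the call of IFI16 ended (-2.69).

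Of 15 genes of MHC class I presentation, all tested in HT29, TAP1, PSMB8, PSMB9 and NLRC5 were called higher, beside 1.92% of all genes. TAP1, a subunit of the peptide transporter, had 286, 230 and 215 with vehicle and 414, 400 and 448 with wortmannin in HT29 and 1711, 1703 and 1762 with vehicle and 1456, 1461 and 1466 with wortmannin in SW1783. The lower line rose and the higher line fell, by 0.77 ± 0.14 and -0.24 ± 0.05. NLRC5, the activator of class I genes, had 16.2, 8.02 and 23.6 with vehicle and 59.1, 53.4 and 80.4 with wortmannin in HT29 and 610, 619 and 622 with vehicle and 657, 635 and 720 with wortmannin in SW1783. The difference was called for 6 of the 15, beside 2.48% of all genes. TAP1 (-1.04 ± 0.10 (DESeq2 adjusted p = 6.87e-21)) and NLRC5 (-1.96 ± 0.27 (DESeq2 adjusted p = 6.82e-11)) were among the 6. Without HT29 vehicle replicate 2 the number called higher in HT29 fell to 2, since PSMB8 (0.57) and PSMB9 (1.21) lost their calls.

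In 2 genes the lines were called in opposite directions (0.0168% of the 11931 tested in both). OASL (ENSG00000135114, chr12:121017763-121039246), a relative of the oligoadenylate synthetases that enhances RIGI signalling, had 245, 291 and 258 with vehicle and 155, 133 and 172 with wortmannin in SW1783 and 160, 116 and 156 with vehicle and 280, 237 and 301 with wortmannin in HT29. All SW1783 wortmannin libraries were below vehicle and all HT29 wortmannin libraries above it. The changes were -0.79 ± 0.14 (DESeq2 adjusted p = 2.41e-07) and 0.90 ± 0.17 (DESeq2 adjusted p = 5.11e-06). STON2 (ENSG00000140022, chr14:81260652-81436465), an endocytic adaptor, had 267, 312 and 283 with vehicle and 174, 169 and 184 with wortmannin in SW1783 and 28.7, 35 and 35.9 with vehicle and 51.3, 67.2 and 55.7 with wortmannin in HT29, with changes of -0.71 ± 0.13 (DESeq2 adjusted p = 3.15e-07) and 0.78 ± 0.30 (DESeq2 adjusted p = 0.0495). The HT29 call of STON2 ended when any single HT29 library was left out, at 0.65 to 0.86, while its direction remained.

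Genes of DNA replication made up a second group with a more positive difference in HT29. All 20 listed genes were tested in both lines. In SW1783 6 were called lower (CDC6, MCM10, CDC45, GINS2, RRM2 and TYMS), beside 0.983% of all genes. At an adjusted p under 0.05 alone 19 were lower there, beside 20.1%. In HT29 1 was called higher, CCNE2, beside 1.92% of all genes. At an adjusted p under 0.05 alone 5 were higher and 2 lower in HT29, beside 7.63% and 11.1%. The median log2 fold change was -0.42 in SW1783 and 0.007 in HT29. The difference was called for 7 members, all more positive in HT29, beside 2.48% of all genes. At an adjusted p under 0.05 alone 19 of 20 differed, beside 9.53%.

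CDC6 (ENSG00000094804, chr17:40287879-40304657), which loads the replicative helicase, had 2119, 1997 and 2057 with vehicle and 1390, 1281 and 1357 with wortmannin in SW1783 and 1623, 1672 and 1789 with vehicle and 2077, 2128 and 2088 with wortmannin in HT29. MCM10 (ENSG00000065328, chr10:13161558-13211110), which helps to start the fork, had 707, 656 and 707 with vehicle and 447, 453 and 444 with wortmannin in SW1783 and 693, 723 and 770 with vehicle and 918, 992 and 979 with wortmannin in HT29. In both genes the wortmannin libraries lay below vehicle in SW1783 and above it in HT29. The differences were -0.92 ± 0.07 (DESeq2 adjusted p = 4.34e-35) and -1.02 ± 0.10 (DESeq2 adjusted p = 5.63e-23).

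CDC45, a subunit of the active helicase, had 589, 584 and 571 with vehicle and 366, 358 and 354 with wortmannin in SW1783 and 1106, 1010 and 1093 with vehicle and 1102, 1098 and 1038 with wortmannin in HT29, where the groups overlapped. RRM2, the small subunit of ribonucleotide reductase, had 5211, 5060 and 5027 with vehicle and 3196, 3162 and 3030 with wortmannin in SW1783 and 5874, 6138 and 6523 with vehicle and 6204, 6043 and 5878 with wortmannin in HT29. TYMS, which makes thymidylate, fell in both lines, with changes of -0.68 ± 0.05 in SW1783 and -0.38 ± 0.06 in HT29, the latter below the fold threshold. PCNA, the sliding clamp, changed by -0.28 ± 0.04 and -0.04 ± 0.07. CCNE2, a cyclin of the entry into S phase, had 288, 235 and 261 with vehicle and 416, 394 and 387 with wortmannin in HT29 and 803, 755 and 719 with vehicle and 625, 653 and 652 with wortmannin in SW1783, a difference of -0.86 ± 0.12 (DESeq2 adjusted p = 8.11e-11). Its HT29 call ended without vehicle replicate 2 (0.52), vehicle replicate 3 (0.58) or wortmannin replicate 1 (0.56).

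The transcription factors that drive these genes were looked up after their values had been seen. E2F1 had 966, 1019 and 1003 with vehicle and 722, 678 and 694 with wortmannin in SW1783 and 1863, 1558 and 1453 with vehicle and 1922, 1838 and 1939 with wortmannin in HT29, with a difference of -0.74 ± 0.11 (DESeq2 adjusted p = 6.02e-09). E2F2 had 173, 158 and 152 with vehicle and 100, 107 and 91.7 with wortmannin in SW1783 and 190, 197 and 195 with vehicle and 299, 261 and 292 with wortmannin in HT29, and all wortmannin libraries lay below vehicle in SW1783 and above it in HT29, a difference of -1.25 ± 0.18 (DESeq2 adjusted p = 2.55e-10). E2F8, a repressor of the family, changed by -0.66 ± 0.15 and 0.30 ± 0.09, and its SW1783 call ended without wortmannin replicate 3 (-0.58). MYBL2, an E2F target, had 907, 812 and 822 with vehicle and 420, 438 and 385 with wortmannin in SW1783 and 4838, 4448 and 4536 with vehicle and 3893, 3817 and 3693 with wortmannin in HT29, lower in both lines and more so in SW1783, by -0.76 ± 0.09 (DESeq2 adjusted p = 2.41e-16).

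**Figure D3:**
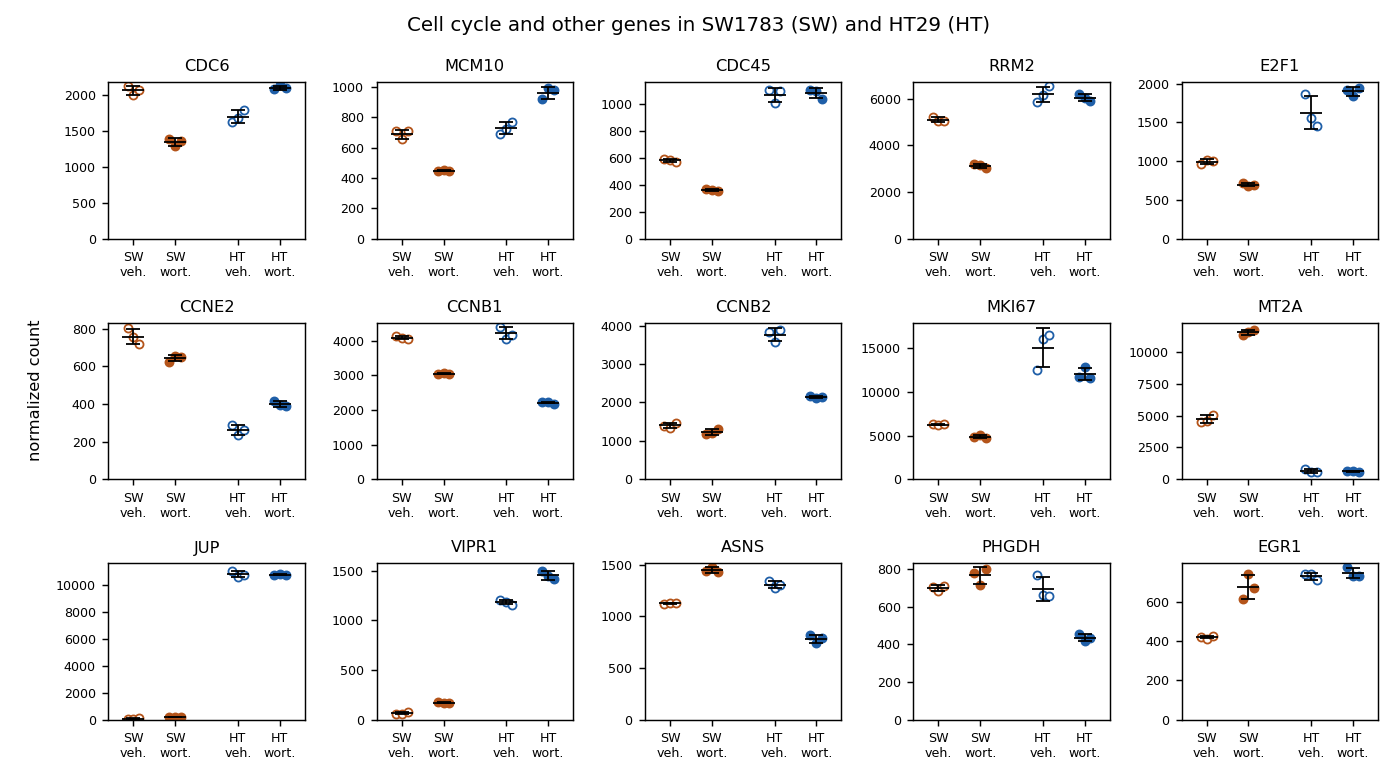
Normalized counts (vertical axes, from 0) of replication, cell cycle and other genes in SW1783 and HT29 with vehicle (open) and wortmannin (filled), 1 point per library with the mean and SD of 3. CDC6 and MCM10 fall in SW1783 and rise in HT29, CCNB1 and CCNB2 fall more in HT29, and MT2A rises in SW1783 alone.

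Mitotic genes behaved otherwise: they fell in both lines, and further in HT29. All 20 listed genes were lower in each line at an adjusted p under 0.05 alone, beside 20.1% of all genes in SW1783 and 11.1% in HT29, with medians of -0.39 in SW1783 and -0.55 in HT29. The fold threshold was passed by 1 in SW1783 and by 8 in HT29, beside 0.983% and 0.731% of all genes called lower. CCNB1, the mitotic cyclin, had 4132, 4080 and 4057 with vehicle and 3045, 3076 and 3033 with wortmannin in SW1783 and 4405, 4058 and 4178 with vehicle and 2223, 2217 and 2186 with wortmannin in HT29, changes of -0.43 ± 0.03 and -0.96 ± 0.06 whose difference, 0.51 ± 0.05 (DESeq2 adjusted p = 6.78e-19), stayed under the fold threshold. CCNB2 had 1394, 1347 and 1465 with vehicle and 1169, 1203 and 1312 with wortmannin in SW1783 and 3821, 3573 and 3894 with vehicle and 2173, 2122 and 2149 with wortmannin in HT29, and was the only member whose difference was called, at 0.62 ± 0.08 (DESeq2 adjusted p = 5.39e-13) and not without SW1783 wortmannin replicate 3 (0.57). Over all genes the difference was called as more positive in SW1783 for 0.881%. At an adjusted p under 0.05 alone it was more positive in SW1783 for 8 members, beside 5.33% of all genes. It was more positive in HT29 for 1, beside 9.53%. PTTG1, the securin that holds sister chromatids together, was looked up after its values were seen and had 2809, 2189 and 2076 with vehicle and 1140, 1005 and 998 with wortmannin in HT29 and 2771, 2604 and 2512 with vehicle and 2003, 2073 and 2088 with wortmannin in SW1783, a difference of 0.81 ± 0.14 (DESeq2 adjusted p = 1.23e-07). MKI67, the proliferation antigen, changed by -0.38 ± 0.03 and -0.35 ± 0.10, with overlap in HT29.

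Further genes were called lower in SW1783 and not in HT29. HMOX1, the heme-degrading enzyme of the oxidative stress response, was looked up after its values were seen and had 1299, 1234 and 1264 with vehicle and 632, 635 and 645 with wortmannin in SW1783 and 190, 197 and 230 with vehicle and 195, 205 and 200 with wortmannin in HT29. Its SW1783 libraries were separated by a wide gap and its HT29 libraries overlapped, a difference of -0.95 ± 0.12 (DESeq2 adjusted p = 2.33e-13). BIRC3, an NF-kB target that restrains cell death, had 250, 231 and 228 with vehicle and 138, 125 and 111 with wortmannin in SW1783 and 136, 130 and 117 with vehicle and 134, 110 and 129 with wortmannin in HT29, a difference of -0.88 ± 0.20 (DESeq2 adjusted p = 0.000256). Of the 23 NF-kB targets and chemokines, 16 were tested in SW1783. CXCL12, BIRC3 and CXCL8 were called lower there, beside 0.983% of all genes, and CXCL12 had no counts in HT29. The call of CXCL8 ended without vehicle replicate 2 (-0.58), vehicle replicate 3 (-0.54) or wortmannin replicate 2 (-0.56), and its difference was called without HT29 vehicle replicate 1 (-0.81). The difference was called for 3 of the 15 tested, all more positive in HT29, beside 2.48% of all genes. They were BIRC3, RELB (-0.79 ± 0.15 (DESeq2 adjusted p = 2.48e-06)) and TNFAIP3. The call of TNFAIP3 ended under TMM scaling (-0.57) and when any of 8 single libraries was left out (-0.63 to -0.43).

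The aldo-keto reductase genes AKR1C2, AKR1C1 and AKR1B10 were looked up after their values were seen. AKR1C2 had 251, 194 and 230 with vehicle and 653, 510 and 604 with wortmannin in HT29 and 232, 239 and 210 with vehicle and 245, 232 and 246 with wortmannin in SW1783, a difference of -1.31 ± 0.18 (DESeq2 adjusted p = 1.56e-11). AKR1C1 and AKR1C2 are near-identical and their reads were divided by a model, so the share of each is uncertain. AKR1B10 changed by 0.48 ± 0.08 in HT29 and -0.35 ± 0.17 in SW1783, both under the fold threshold.

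MT2A (ENSG00000125148, chr16:56608584-56609497), a metallothionein that binds zinc and copper, had a more positive change in SW1783. It had 4522, 4573 and 5081 with vehicle and 11335, 11585 and 11720 with wortmannin in SW1783 and 805, 566 and 565 with vehicle and 637, 666 and 584 with wortmannin in HT29. In SW1783 every wortmannin library lay far above vehicle, and in HT29 the groups overlapped. The changes were 1.29 ± 0.05 (DESeq2 adjusted p = 6.25e-119) and -0.06 ± 0.14 (DESeq2 adjusted p = 0.834), with a difference of 1.32 ± 0.14 (DESeq2 adjusted p = 1.03e-17). MT1E, looked up after its values were seen, rose by 0.71 ± 0.10 in SW1783 and changed by -0.31 ± 0.10 in HT29.

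VIPR1 (ENSG00000114812, chr3:42489299-42537573), the receptor of vasoactive intestinal peptide, had 57.8, 60.1 and 75.1 with vehicle and 181, 166 and 169 with wortmannin in SW1783 and 1204, 1190 and 1159 with vehicle and 1502, 1452 and 1412 with wortmannin in HT29, with no overlap in either line and changes of 1.42 ± 0.19 against 0.27 ± 0.07. JUP (ENSG00000173801, chr17:41754604-41786931), plakoglobin of cell junctions, had 87.8, 84.8 and 99.1 with vehicle and 176, 196 and 232 with wortmannin in SW1783 and 11069, 10617 and 10754 with vehicle and 10777, 10790 and 10730 with wortmannin in HT29. The epithelial line held a level far above SW1783, and its vehicle and wortmannin libraries overlapped. The differences were 1.13 ± 0.14 (DESeq2 adjusted p = 5.65e-13) and 1.17 ± 0.12 (DESeq2 adjusted p = 9.63e-22).

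GCHFR (ENSG00000137880, chr15:40764068-40767708), the feedback regulator of tetrahydrobiopterin synthesis, had 23.6, 38 and 34.9 with vehicle and 90, 90.1 and 85.8 with wortmannin in SW1783 and 1193, 905 and 841 with vehicle and 809, 748 and 732 with wortmannin in HT29, with a difference of 1.81 ± 0.24 (DESeq2 adjusted p = 1.74e-11). VAT1L (ENSG00000171724, chr16:77788564-77980107) had 85.7, 87.5 and 86 with vehicle and 231, 208 and 217 with wortmannin in SW1783 and at most 10.3 normalized counts in any HT29 library. HCN2 (ENSG00000099822, chr19:589881-617159), a pacemaker channel, had 245, 301 and 294 with vehicle and 500, 525 and 500 with wortmannin in SW1783 and 8.73, 13.1 and 11.3 with vehicle and 6.69, 3.68 and 9.9 with wortmannin in HT29, where the groups overlapped. HCN2 lost the call of its difference without HT29 wortmannin replicate 2 (1.33).

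Other genes named by the rule were close to the floor in one line. SLITRK6, HSD17B2, SHF and IGF2 had at most 33.6 normalized counts in any SW1783 library and at least 159.6 in every HT29 library. Of these, SLITRK6 had 7.5, 9.72 and 6.53 with vehicle and 33.6, 18.6 and 24.4 with wortmannin in SW1783 and 1277, 1394 and 1558 with vehicle and 1779, 1799 and 1811 with wortmannin in HT29, and IGF2, which overlaps 4 genes on its strand, had 5.35, 1.77 and 6.53 with vehicle and 15.4, 23.5 and 16.8 with wortmannin and 2242, 2012 and 1965 with vehicle and 3410, 3470 and 3579 with wortmannin. SERPINB3 had 5, 4 and 2 raw counts with vehicle and 0, 0 and 0 with wortmannin in HT29, so its fitted difference rests on a group at 0 and is no bound. The calls of HSD17B2, SHF, IGF2 and SERPINB3 ended without 1 or more single libraries, with differences of 1.01 for HSD17B2 without SW1783 vehicle replicate 2, 1.0 for SHF without SW1783 vehicle replicate 1 and 1.3 without SW1783 wortmannin replicate 3. For IGF2 the value was 1.49, 0.88 and 1.14 without SW1783 vehicle replicate 1, vehicle replicate 2 and wortmannin replicate 2. SERPINB3 lost its call without HT29 wortmannin replicate 1 or 2. On the HT29 side, C4orf19 (ENSG00000154274, chr4:37453925-37623495) likewise had 3, 1 and 8 raw counts with vehicle and 0, 0 and 1 with wortmannin in SW1783, and lost its call without SW1783 vehicle replicate 3 (-2.50), wortmannin replicate 1 (-3.08) or wortmannin replicate 2 (-3.13). PCDHGA5, at 0 to 7.8 normalized counts in HT29, overlaps 25 genes of the protocadherin gamma cluster on its strand and is uncertain.

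A pair of amino acid synthesis genes was called lower in HT29. ASNS, asparagine synthetase, had 1340, 1275 and 1299 with vehicle and 819, 743 and 788 with wortmannin in HT29 and 1122, 1133 and 1125 with vehicle and 1436, 1476 and 1424 with wortmannin in SW1783, so the groups separated in opposite directions, with a difference of 1.09 ± 0.07 (DESeq2 adjusted p = 2.79e-45). PHGDH, the first enzyme of serine synthesis, had 770, 661 and 659 with vehicle and 453, 417 and 434 with wortmannin in HT29 and 705, 682 and 709 with vehicle and 781, 717 and 802 with wortmannin in SW1783, a difference of 0.81 ± 0.11 (DESeq2 adjusted p = 9.74e-11). Of the 18 genes of the amino acid and ER stress response, 16 were tested in HT29, with ASNS and PHGDH called lower, beside 0.731% of all genes, and 9 lower at an adjusted p under 0.05 alone, beside 11.1%. The difference was called for 3 of 17 tested, all more positive in SW1783, beside 0.881% of all genes. The last was CEBPB (0.81 ± 0.16 (DESeq2 adjusted p = 1.33e-05)), which encodes a transcription factor.

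Of the immediate early and ERK feedback genes, ETV4, FOS and EGR1 were called higher among 20 tested in SW1783, beside 1.74% of all genes. None of 20 was called in HT29. EGR1 had 420, 413 and 425 with vehicle and 615, 739 and 671 with wortmannin in SW1783 and 739, 740 and 710 with vehicle and 777, 730 and 731 with wortmannin in HT29, a difference of 0.66 ± 0.11 (DESeq2 adjusted p = 1.02e-07). ETV4 had 133, 156 and 168 with vehicle and 254, 248 and 248 with wortmannin in SW1783 and 2376, 2225 and 2133 with vehicle and 2452, 2265 and 2533 with wortmannin in HT29, a difference of 0.61 ± 0.12 (DESeq2 adjusted p = 1.96e-05). The call of ETV4's difference ended without SW1783 vehicle replicate 1 (0.52), HT29 vehicle replicate 1 (0.57) or HT29 wortmannin replicate 2 (0.56). The SW1783 call of FOS ended when any SW1783 library but vehicle replicate 1 was left out (0.60 to 0.75) and against the other batch's vehicles (0.57). FOS, at 45, 35.4 and 31.6 with vehicle and 57.2, 58.8 and 66.4 with wortmannin in SW1783, lost the call of its difference without SW1783 vehicle replicate 2 (0.66), vehicle replicate 3 (0.60) or wortmannin replicate 3 (0.63).

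The 24 genes called the same way in both lines led with TXNIP (ENSG00000265972, chr1:145992435-145996579), which restrains glucose uptake and thioredoxin. It had 222, 210 and 229 with vehicle and 341, 382 and 409 with wortmannin in SW1783 and 1297, 1270 and 1358 with vehicle and 2291, 2184 and 2237 with wortmannin in HT29. No libraries overlapped, and the changes were 0.77 ± 0.12 (DESeq2 adjusted p = 5.33e-10) and 0.75 ± 0.06 (DESeq2 adjusted p = 1.25e-28). Their difference was 0.01 ± 0.11. The forkhead letters GTAAACA, in capitals, stand once in the promoter window of TXNIP, and in 931 of all 27305 windows (3.41%), on either strand.
TXNIP (chr1:145996687-145996713, minus strand): cgggctcctgGTAAACAaggaccgggc

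SLC14A1 (ENSG00000141469, chr18:45687025-45752520), a urea transporter, had the largest shared rise, judged by the smaller change of the lines. It had 33.2, 41.5 and 47.9 with vehicle and 85.4, 73.4 and 72.3 with wortmannin in SW1783 and 160, 187 and 170 with vehicle and 311, 324 and 330 with wortmannin in HT29, with changes of 0.91 ± 0.26 (DESeq2 adjusted p = 0.0019) and 0.86 ± 0.13 (DESeq2 adjusted p = 9.39e-09). IDUA (ENSG00000127415, chr4:986997-1004564), a lysosomal hydrolase, had 49.3, 66.3 and 69.7 with vehicle and 124, 131 and 96.7 with wortmannin in SW1783 and 202, 169 and 177 with vehicle and 302, 271 and 306 with wortmannin in HT29. TRANK1 (ENSG00000168016, chr3:36826819-36945057) had 133, 162 and 132 with vehicle and 219, 211 and 245 with wortmannin in SW1783 and 38.7, 42.3 and 55.4 with vehicle and 135, 131 and 172 with wortmannin in HT29. Neither gene's groups overlapped in either line. IFITM1 (ENSG00000185885, chr11:310041-315272), an antiviral membrane protein whose reads were partly divided with other genes, had 614, 572 and 574 with vehicle and 988, 988 and 970 with wortmannin in SW1783 and 21.2, 8.02 and 22.6 with vehicle and 143, 124 and 137 with wortmannin in HT29. TRANK1 and IFITM1 rose in both lines and still had differences of -1.02 ± 0.25 (DESeq2 adjusted p = 0.000786) and -2.33 ± 0.24 (DESeq2 adjusted p = 7.2e-20).

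The genes called lower in both lines included CDC20, CEP55 and CENPM, which serve chromosome segregation and cell division. CDC20 (ENSG00000117399, chr1:43358981-43363203), the activator of the anaphase-promoting complex, had 4666, 4468 and 4584 with vehicle and 2935, 2869 and 2938 with wortmannin in SW1783 and 3876, 3596 and 3625 with vehicle and 2116, 2079 and 2123 with wortmannin in HT29. CEP55 (ENSG00000138180, chr10:93496612-93529092), needed for the final cut between daughter cells, had 1847, 1798 and 1750 with vehicle and 1145, 1180 and 1195 with wortmannin in SW1783 and 1764, 1853 and 1980 with vehicle and 1101, 1188 and 1136 with wortmannin in HT29. The groups were far apart in both lines, with changes of -0.65 ± 0.03 and -0.84 ± 0.06 for CDC20 and of -0.62 ± 0.05 and -0.73 ± 0.07 for CEP55. SAP30 (ENSG00000164105, chr4:173369969-173377532), a subunit of a histone deacetylase complex, had 328, 296 and 320 with vehicle and 215, 187 and 204 with wortmannin in SW1783 and 167, 162 and 155 with vehicle and 114, 81.9 and 97.7 with wortmannin in HT29. LYAR, a nucleolar growth regulator, changed by -0.78 ± 0.11 and -0.60 ± 0.12, and CENPM by -0.71 ± 0.11 and -0.60 ± 0.11.

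**Figure D4:**
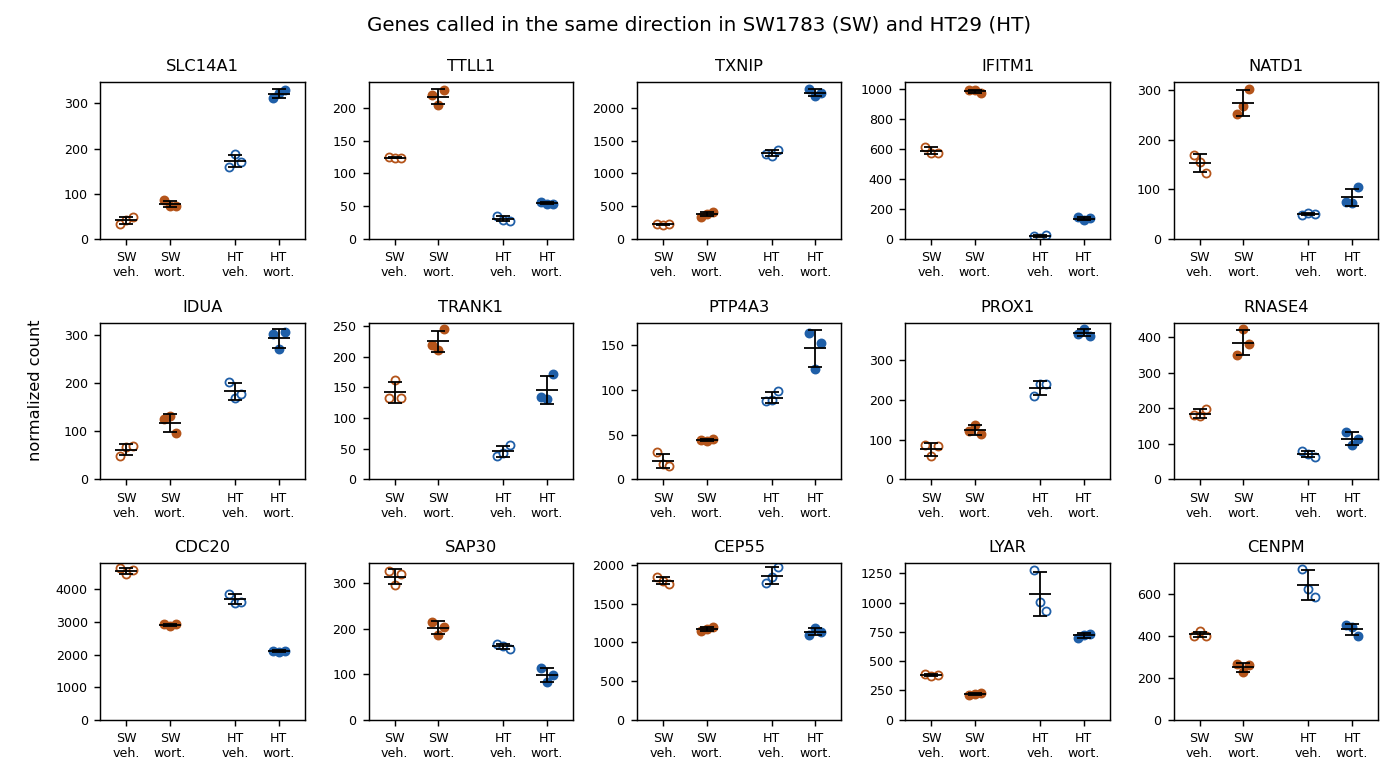
Normalized counts (vertical axes, from 0) of the 15 protein-coding genes named from those called in the same direction in SW1783 and HT29, with vehicle (open) and wortmannin (filled), 1 point per library with the mean and SD of 3. The upper 10 genes rise in both lines, from levels that often differ between the lines, and the lower 5 fall.

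Of the 24 genes, 8 kept both calls when each of the 12 libraries was left out in turn, namely SLC14A1, TXNIP, IFITM1, IDUA and TRANK1 on the higher side and CDC20, CEP55 and SAP30 on the lower. Of these 8, IDUA and SAP30 were not called in both lines against the vehicles of the other batch. SLC14A1, IFITM1 and TRANK1 were not called in both lines when the replicate number was fitted as a block. The other 16 depended on single libraries, mostly of HT29, and without HT29 wortmannin replicate 3 both calls remained for 12 of the 24. TTLL1 and NATD1 lost the HT29 call without any single HT29 library, at 0.73 to 0.90 and 0.53 to 0.81. PROX1, a homeobox factor, lost the SW1783 call without vehicle replicate 2 (0.54). LYAR lost the HT29 call without HT29 vehicle replicate 1 (-0.45) or wortmannin replicate 1 (-0.58), and CENPM without vehicle replicate 1 (-0.51) or wortmannin replicate 3 (-0.55). PTP4A3, a phosphatase, and RNASE4, which overlaps 2 genes on its strand, lost a call without 6 and 4 of the 12 libraries.

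Few genes of the PI3K pathway itself were called at the mRNA level, and none for the difference between the lines. Of 35 genes, 33 were tested in each line, with PIK3IP1 and DEPTOR called higher in SW1783 and none in HT29. Over all genes 1.74% and 1.92% were called higher in these lines. For the difference 34 were tested and none called, beside 3.36% of all genes. In a list this short the lack of calls is not read as a trait of the pathway. PIK3IP1, an inhibitor of PI3K, had 33.2, 42.4 and 35.9 with vehicle and 72.7, 84.2 and 69.8 with wortmannin in SW1783 and 32.4, 27.7 and 24.6 with vehicle and 35.7, 39.6 and 33.4 with wortmannin in HT29. DEPTOR, an inhibitor of mTOR, had 39.6, 43.3 and 28.3 with vehicle and 65.4, 68.5 and 71.5 with wortmannin in SW1783 and 135, 138 and 117 with vehicle and 186, 177 and 220 with wortmannin in HT29. The groups did not overlap for either gene in either line. DEPTOR changed by 0.87 ± 0.27 and 0.55 ± 0.17, and the SW1783 call of DEPTOR ended without vehicle replicate 3 (0.72). The catalytic subunit gene PIK3CA changed by 0.10 ± 0.05 and 0.09 ± 0.09 and AKT1 by -0.16 ± 0.03 and -0.13 ± 0.06.

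FOXO target genes rose in part in each line, with TXNIP as the only listed member called in both. Of 25 targets, 19 were tested in SW1783 and 5 called higher (IGFBP1, PIK3IP1, TXNIP, IRS2 and PDK4), beside 1.74% of all genes. In HT29 20 were tested and 3 called higher (TXNIP, INSR and TNFSF10), beside 1.92%. At an adjusted p under 0.05 alone 11 were higher and 3 lower in SW1783, beside 13.8% and 20.1% of all genes. In HT29 7 were higher and 1 lower, beside 7.63% and 11.1%. IRS2, an adaptor of the insulin receptor, changed by 0.62 ± 0.09 in SW1783 and 0.48 ± 0.10 in HT29, and its SW1783 call ended without vehicle replicate 1 (0.53). INSR, the insulin receptor, changed by 0.36 ± 0.08 and 0.70 ± 0.10, without overlap in either line. IGFBP1, an insulin-like growth factor binding protein, had 515, 546 and 503 with vehicle and 1526, 1586 and 1667 with wortmannin in SW1783 and at most 1.46 normalized counts in any HT29 library, so its difference could not be judged. PDK4 lost its call without any of 5 single SW1783 libraries (0.63 to 0.71).

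The difference was called for 2 of the 21 FOXO targets tested, in opposite directions, beside 3.36% of all genes. CCNG2, an unusual cyclin linked to arrest, had 463, 468 and 466 with vehicle and 662, 703 and 716 with wortmannin in SW1783 and 724, 715 and 794 with vehicle and 694, 664 and 726 with wortmannin in HT29, a difference of 0.67 ± 0.10 (DESeq2 adjusted p = 2.7e-09). TNFSF10, the death ligand TRAIL and also inducible by interferon, had 146, 134 and 180 with vehicle and 277, 240 and 260 with wortmannin in HT29 and 33.2, 35.4 and 35.9 with vehicle and 28.2, 23.5 and 36.2 with wortmannin in SW1783, a difference of -1.0 ± 0.29 (DESeq2 adjusted p = 0.00705). CDKN1B, the cell cycle inhibitor p27, changed by 0.25 ± 0.08 in SW1783 and -0.25 ± 0.08 in HT29, in opposite directions and under the fold threshold in both. FOXO4 was called higher in SW1783, at 0.96 ± 0.12 against 0.39 ± 0.11 in HT29, and FOXO1 and FOXO3 changed by -0.02 and -0.14 in SW1783.

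**Figure D5:**
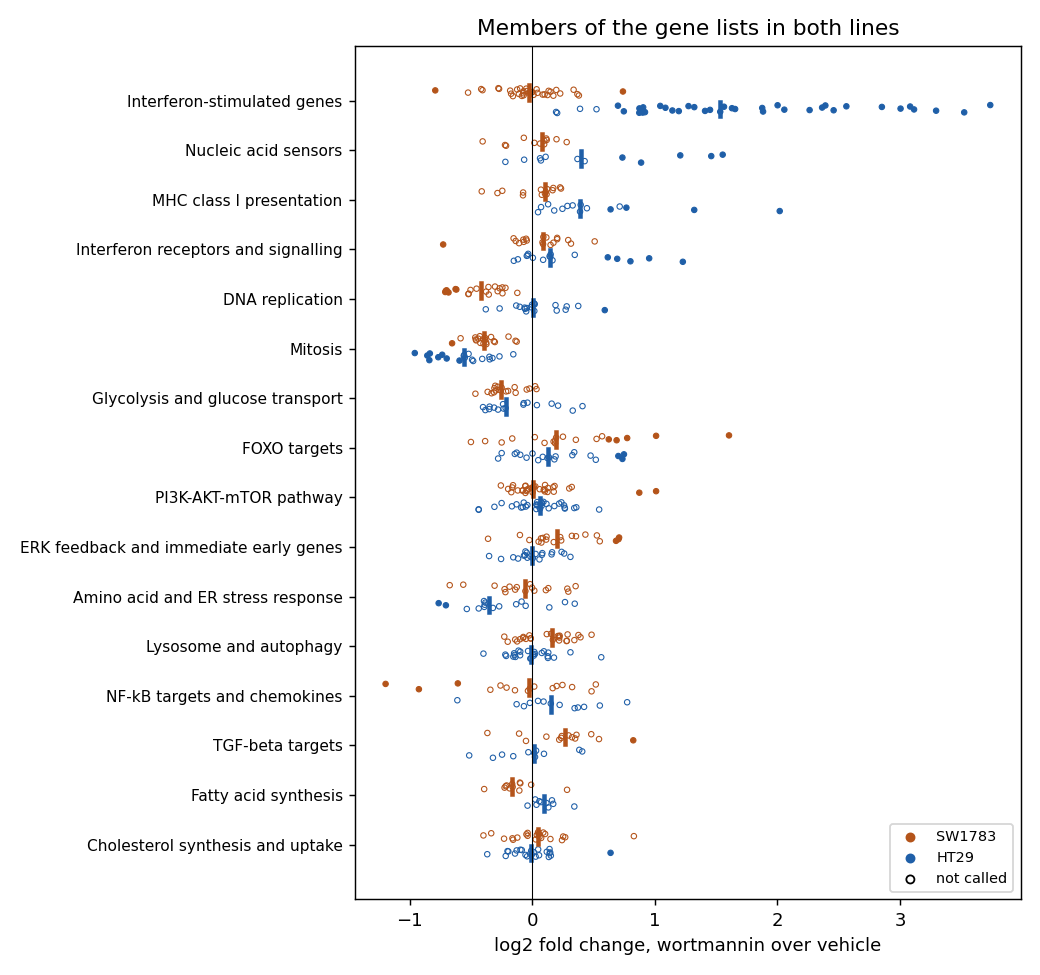
Log2 fold changes (horizontal axis) of the members of 16 gene lists with wortmannin in SW1783 (orange, upper line of each pair) and HT29 (blue, lower line), filled where called, with the median as a bar. The interferon-stimulated genes of HT29 reach 3.74, the replication genes of SW1783 lie wholly below 0, and the mitotic genes lie below 0 in both lines.

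The remaining lists moved by less than the fold threshold or in few members. Of 18 glycolysis genes, 14 of 18 tested were lower in SW1783 and 9 of 17 in HT29 at an adjusted p under 0.05 alone, beside 20.1% and 11.1% of all genes, and none was called in either line, with medians of -0.26 and -0.22. PDK1, which diverts pyruvate from mitochondria, was the only member whose difference was called, at -0.81 ± 0.11 (DESeq2 adjusted p = 4.7e-12). Of the 27 lysosome and autophagy genes, 14 of 26 tested were higher in SW1783 and 1 of 25 in HT29 at an adjusted p under 0.05 alone, beside 13.8% and 7.63% of all genes, with no call in either line. Of 14 TGF-beta targets LTBP2 was called higher in SW1783, beside 1.74% of all genes. The difference was called for 2 members, ID1 (0.81 ± 0.10 (DESeq2 adjusted p = 2.92e-13)) among them, beside 3.36% of all genes. Of the 24 cholesterol genes TM7SF2 was called, in HT29, and not without HT29 vehicle replicate 3 (0.58), and of 13 fatty acid synthesis genes and 18 p53 targets none was called in either line. None of the 13 mRNAs and 2 ribosomal RNAs of the mitochondrial genome was called in either line. Over all genes 2.72% were called in SW1783, 2.65% in HT29 and 3.36% for the difference. In lists this short, counts of 0 to 2 are therefore not read as a trait of the list.

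For orientation, the same genes were read in the libraries with the high dose of the plant extract, whose vehicle libraries are not independent of those used above. Of the interferon-stimulated genes, 6 were called higher and 2 lower in SW1783, where 8.64% and 9.57% of all genes were called, and none in HT29, where 1.29% and 1.63% were called. IFI44L changed by -0.76 ± 0.49 (DESeq2 adjusted p = 0.439) in HT29 and MX1 by -0.48 ± 0.29 (DESeq2 adjusted p = 0.387). TXNIP, raised by wortmannin in both lines, changed by -0.39 ± 0.18 (DESeq2 adjusted p = 0.0585) in SW1783 and by -1.38 ± 0.16 (DESeq2 adjusted p = 3.43e-16) in HT29 with the extract, and ASNS by 2.08 ± 0.14 (DESeq2 adjusted p = 4.54e-50) in HT29. In MT2A the change was 0.72 ± 0.04 (DESeq2 adjusted p = 1.19e-65) in SW1783.

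The limit of 1.5-fold cut through a continuum of differences. Just inside it lay ZNF239, POLA2 and EEPD1, with differences of -0.5863, -0.5868 and -0.5876, and just outside ARMC5, DAB2 and INPP5K, with 0.5835, -0.5836 and 0.5847, all with adjusted p-values under 0.05 in DESeq2.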

How the data were processed

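Directional mRNA libraries were prepared by the authors and sequenced from both ends with MGI chemistry. Per the submitters' processing notes, FastQC 0.11.9, Trim Galore 0.6.5, STAR 2.7.3a and RSEM 1.3.3 were used, with an Ensembl annotation of GRCh38. The strand setting of the counting is not given in the sources used here. The deposited table holds RSEM expected counts of 60675 genes, not normalized, which were rounded to whole numbers here. RSEM divides reads shared by similar genes by a model, so such genes carry an error that the counts do not show. Positions and symbols are those of GENCODE v44 on GRCh38, and 4117 identifiers without a match were tested under their identifiers.

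Each line was fitted with its own 6 libraries, and the difference with the 12 libraries of both, in DESeq2 1.42.0 (R 4.3.3), with its size factors, two-sided Wald tests and the Benjamini-Hochberg adjustment over the genes of a contrast. Adjusted p-values left out by DESeq2 stayed out. The fit of the difference used 1 dispersion per gene for both lines, though the libraries of HT29 spread more widely than those of SW1783. The SE of a difference can therefore be smaller than that of the HT29 change alone, as for UBE2L6 (0.23 against 0.29). Calls needed an adjusted p-value under 0.05 and a change over 1.5-fold. The dispersion trend was parametric, except that DESeq2 substituted a local fit for SW1783 without vehicle replicate 1 and for the difference without HT29 vehicle replicate 1. edgeR 4.0.16 was the alternative. In simulated data the difference was recovered for 100 of 100 genes changed by 1 (log2) and for 100 of 100 changed by 2. There were 0 false calls among 18632 genes. The simulation gave all genes and libraries of both lines the same dispersion and changed only genes with over 100 expected counts in both. It checks the code, and says nothing of power or false calls under the unequal spread of the lines or near the floor.

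Genes were named from those protein-coding, with a mean count of 100 or more in a line and without overlap in the line with the larger change: 12 of each sign for the difference, 10 of each sign for the shared genes, all genes with opposite calls, and members of the lists. Members and lists were chosen with earlier results of these data known. Some genes that the rule or the lists would name are not reported here, and they stayed in the counts. The list symbol SOD2 was not matched. With 17652481 to 29985875 counts a library and 3 libraries a group, the number of libraries limits the precision. The series text gives another DMSO concentration than the labels, and the labels are followed.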

Additional observations from a re-analysis of the deposited data

Results flagged for a closer look

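The response to wortmannin differed between the lines for 458 genes, by the test of the difference itself on 12 libraries. The values below are differences of log2 fold changes, SW1783 minus HT29, for genes named in the text, and each was tested. Groups of 3 libraries were too small for the search for single outlying libraries.

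Negative values, meaning a more positive change in HT29, were found for interferon-stimulated genes. They were -4.04 for IFI44L, -3.50 for SAMD9L, -3.15 for TRIM22, -3.15 for XAF1 and -2.89 for SLC15A3. MX2 had -2.77, UBE2L6 -2.76, MX1 -2.71 and OAS2 -2.68. IFIT1 followed with -2.46, IFITM1 with -2.33, OAS3 with -1.75, OASL with -1.72 and IFITM3 with -1.71. The value was -1.70 for IFI27, -1.29 for ISG15 and -1.02 for TRANK1. Of the genes on the sensor and signalling lists, RIGI had -1.64, DHX58 -1.28, IRF9 -1.16, IFIH1 -1.12 and SAMHD1 -1.12. Of the class I genes, NLRC5 had -1.96, PSMB9 -1.64, TAP1 -1.04 and PSMB8 -0.74.

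Replication and E2F genes likewise had a more positive change in HT29. The values were -1.25 for E2F2, -1.02 for MCM10, -0.98 for E2F8, -0.92 for CDC6 and -0.86 for CCNE2. MYBL2 had -0.76, E2F1 -0.74, CDC45 -0.71, GINS2 -0.67 and RRM2 -0.67. The other negative values were STON2 at -1.51, AKR1C2 at -1.31, AKR1C1 at -0.85, AKR1B10 at -0.85, TNFSF10 at -1.0, HMOX1 at -0.95, BIRC3 at -0.88, PDK1 at -0.81, RELB at -0.79 and TNFAIP3 at -0.61.

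Positive values were 1.81 for GCHFR, 1.33 for SLITRK6, 1.32 for MT2A, 1.18 for HSD17B2, 1.17 for JUP and 1.13 for VIPR1. ASNS had 1.09, YPEL3 1.06, ITGB4 1.04, MT1E 0.99, CEBPB 0.81, PTTG1 0.81, PHGDH 0.81 and ID1 0.81. FOS followed with 0.70, CCNG2 with 0.67, EGR1 with 0.66, CCNB2 with 0.62 and ETV4 with 0.61.

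For genes with at most 23.5 normalized counts in every library of 1 line the fitted value depends on the model and is no bound. These were SERPINB3 at 4.14, where the HT29 wortmannin libraries had 0 counts, VAT1L at 2.46, HCN2 at 1.68, OAS1 at -1.61, SHF at 1.40, IGF2 at 1.33, C4orf19 at -3.56, IFI16 at -3.52 and PCDHGA5 at -3.35.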

How the results depend on the processing

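With edgeR's quasi-likelihood test 803 genes were called in SW1783 and 706 in HT29, with 64 the same way in both and 18 in opposite directions, and all 24 shared genes were among the 64. The difference, 458 genes in DESeq2, was called for 685 with edgeR (41.0% of them more positive in SW1783, against 26.2%), 427 under TMM scaling (35.1%), 453 after a filter on low counts, 459 against the vehicles of the other batch and 282 as the difference of separate fits. With no fold threshold there were 4730 genes in SW1783, 2559 in HT29, 2024 for the difference, 1229 the same way and 129 in opposite directions, and at a log2 threshold of 0.3 329 and 27. Leaving out each library in turn gave 300 to 382 genes in SW1783, 275 to 385 in HT29, 409 to 477 for the difference, 12 to 27 the same way and 1 to 3 in opposite directions. Of the 458 genes, 373 to 409 were called again in a given omission and 262 in all 12 omissions, none with a changed sign. As the difference of separate fits, in which each line keeps its own dispersion, 262 of the 458 were called again (57.2%).

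Replicate numbers were not shown to pair the libraries: deviations of same-numbered libraries correlated at 0.013, 0.052 and 0.028 in SW1783 and at 0.152, 0.134 and -0.056 in HT29. With the replicate block 253 genes were called in SW1783, 201 in HT29 and 272 for the difference, 9 the same way in both lines (SLC14A1, IFITM1 and TRANK1 not among them) and 1 in opposite directions. Under the block and without HT29 vehicle replicate 2, 2 class I presentation genes were called higher in HT29, and 2 mitotic genes were called lower in SW1783 without vehicle replicate 1, wortmannin replicate 2 or wortmannin replicate 3. The cause of these changes was not tested.

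Of 182 called results of the named genes, 137 kept their call under every alternative that gave a value, and 0 were reversed. Some had a value in few alternatives: the HT29 calls of SAMD9L, SLC15A3 and TRIM22 in 2, 3 and 4, that of MX1 in 11. Many named genes were picked for large changes, and the alternatives share most libraries, so the lack of reversals says little. The limits are 3 libraries a group, 1 dose and 1 time, 1 line per tumour type, and in HT29 a vehicle library that stood apart. Each line also had its own medium and plating number. Depth limits the genes near the floor in a line.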

Other observations

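2 genes outside the lists and the naming rule moved in SW1783 and were looked up after their values were seen. ITGB4 (ENSG00000132470, chr17:75721328-75757818), an integrin of epithelial anchoring junctions, had 795, 716 and 746 with vehicle and 1902, 1936 and 1947 with wortmannin in SW1783 and 8225, 9071 and 8580 with vehicle and 10876, 10515 and 10935 with wortmannin in HT29 (normalized counts), with changes of 1.36 ± 0.06 (DESeq2 adjusted p = 3.34e-121) and 0.29 ± 0.05 (DESeq2 adjusted p = 3.41e-06). YPEL3 (ENSG00000090238, chr16:30092314-30096915) had 66.4, 90.1 and 78.4 with vehicle and 221, 204 and 231 with wortmannin in SW1783 and 173, 168 and 160 with vehicle and 232, 221 and 215 with wortmannin in HT29, with changes of 1.47 ± 0.17 (DESeq2 adjusted p = 1.68e-16) and 0.39 ± 0.14 (DESeq2 adjusted p = 0.0401). Neither gene's groups overlapped in either line, and every wortmannin library lay above vehicle.

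Vehicle libraries with the same number in the wortmannin batch and in the extract batch were compared by the chi-square per degree of freedom. Their squared differences were 1.46 to 1.64 times those of counting error, against 2.04 to 17.7 for those with different numbers. The batches' vehicles were therefore not treated as independent, and the difference called 459 genes with the other batch's vehicles, 321 of them among the 458.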
